A study of Mus musculus with 8 samples.

Results

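The 43 autophagy and lysosome genes described here were chosen from a written list of lysosomal membrane proteins, lysosomal enzymes, subunits of the vacuolar proton pump, TFEB-family transcription factors and autophagy genes. All 43 were found by symbol among 55487 gene identifiers, and all 43 passed the low count filter that left 14695 genes for testing. Their levels were compared between hearts labelled as lacking the adhesion receptor ADGRF5 (GPR116) in cardiomyocytes and control hearts. RNA came from the left ventricle of C57BL/6 mice aged 12 weeks. The control group held 4 animals titled NLC with the genotype label wild-type, and the KO group held 4 animals with the genotype label GPR116-/- (myocyte-specific). Each group had 2 males (replicates 1 and 2) and 2 females (replicates 3 and 4). The labels name no Cre driver and do not say whether controls carry a Cre or a floxed allele.

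Lysosomes break down material delivered by endocytosis and autophagy. Their membrane holds glycoproteins, transporters and a proton pump that acidifies the lumen, where cathepsins and glycosidases act. In autophagy a kinase complex starts a double membrane, a conjugation machinery attaches ATG8-family proteins to it, and receptors such as p62 link cargo to those proteins until the vesicle fuses with a lysosome. TFEB and TFE3 are transcription factors that bind E-box-like sites near many lysosomal genes. In heart muscle this pathway clears glycogen and mitochondria, and loss of LAMP2 or of acid α-glucosidase (Gaa) causes cardiomyopathy in Danon and Pompe disease.

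The sites that TFEB-family proteins are known to bind contain the letters CACGTG, which are the same on both strands. RefSeq promoter windows of GRCm38.p6, from 250 bases before to 50 bases after each start, were found for 34 of the 43 genes. CACGTG was present in the windows of 12 of these 34 genes (35.3%), against 11.6% of the 10927 tested genes with a window and 8.09% of all 27025 genes. The longer form TCACGTGA, which contains CACGTG, was present for 6 of 34 genes (17.6%) against 2.07% of tested genes and 1.12% of all genes. Other genes of the same pathway, listed further below, had CACGTG in 19.3% and TCACGTGA in 5.88% of the 119 with a window. Both shares were also above those of the tested genes. The longest form searched, a 10-base palindrome with a further G before and C after those letters, was present for 0 of 34 genes against 0.741% of tested genes and 3.36% of the other pathway genes. Matches to CACGTG stood in 9 of 18 lysosomal and pump genes with a window and in 3 of 16 genes of the other roles. These counts describe letters and show no binding. The following stretches of 30 bases show the longer form in capitals in each of the 6 genes, 1 match per gene, read 5′ to 3′ on the strand of the gene, and are shown because these windows hold the 8-base form.
Ctsd, chr7:142387908-142387937, minus strand: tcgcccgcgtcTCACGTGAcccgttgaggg
Ctsa, chr2:164833749-164833778, plus strand: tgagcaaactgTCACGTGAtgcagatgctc
Gla, chrX:134601182-134601211, minus strand: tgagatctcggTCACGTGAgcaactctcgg
Mcoln1, chr8:3500462-3500491, plus strand: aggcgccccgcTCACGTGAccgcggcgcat
Atp6v0d1, chr8:105566050-105566079, minus strand: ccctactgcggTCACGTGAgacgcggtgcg
Atp6v1a, chr16:44139373-44139402, minus strand: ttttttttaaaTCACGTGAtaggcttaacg

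Lamp1 held the CACGTG core 4 times in the 67 bases before its start, more matches than any other of the 34 genes with a window. The stretch is given with each core in capitals.
Lamp1, chr8:13159094-13159160, plus strand: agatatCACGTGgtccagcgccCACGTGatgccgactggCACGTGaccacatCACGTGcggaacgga

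None of the 43 genes passed the test between KO and control, in either direction. Their edgeR adjusted p-values ran from 0.320 to 0.986, while 15 of the 14695 genes passed (0.102%, of which 0.0476% higher and 0.0544% lower). The log2 fold changes of KO over control ran from -0.26 (Lamp2) to 0.32 (Map1lc3a), with 21 genes above 0 and 22 below. Their median was -0.0032, beside -0.0050 over all tested genes. At an unadjusted p under 0.05 there was 1 gene higher (2.33% of the members) and 4 lower (9.30%), where all tested genes gave 5.77% higher and 6.18% lower. In whole ventricle, fewer cells of a type and less RNA per cell cannot be told apart.

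The intervals bounded the size of the differences. The standard errors of the log2 fold changes ranged from 0.0594 to 0.191, and the 95% interval of each of the 43 genes lay inside a 1.5-fold change either way. For 37 of them it lay within 0.32 of 0 on the log2 scale. These intervals are per gene and not adjusted for the number of genes. Added together, the 43 genes made up 7468 ± 351 CPM (read counts over the TMM-scaled library size, on the usual CPM scale) in control hearts, beside 7572 ± 404 CPM for the KO hearts (SD, n = 4 per group), so the summed level differed by less than the spread between animals.

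**Figure D1:**
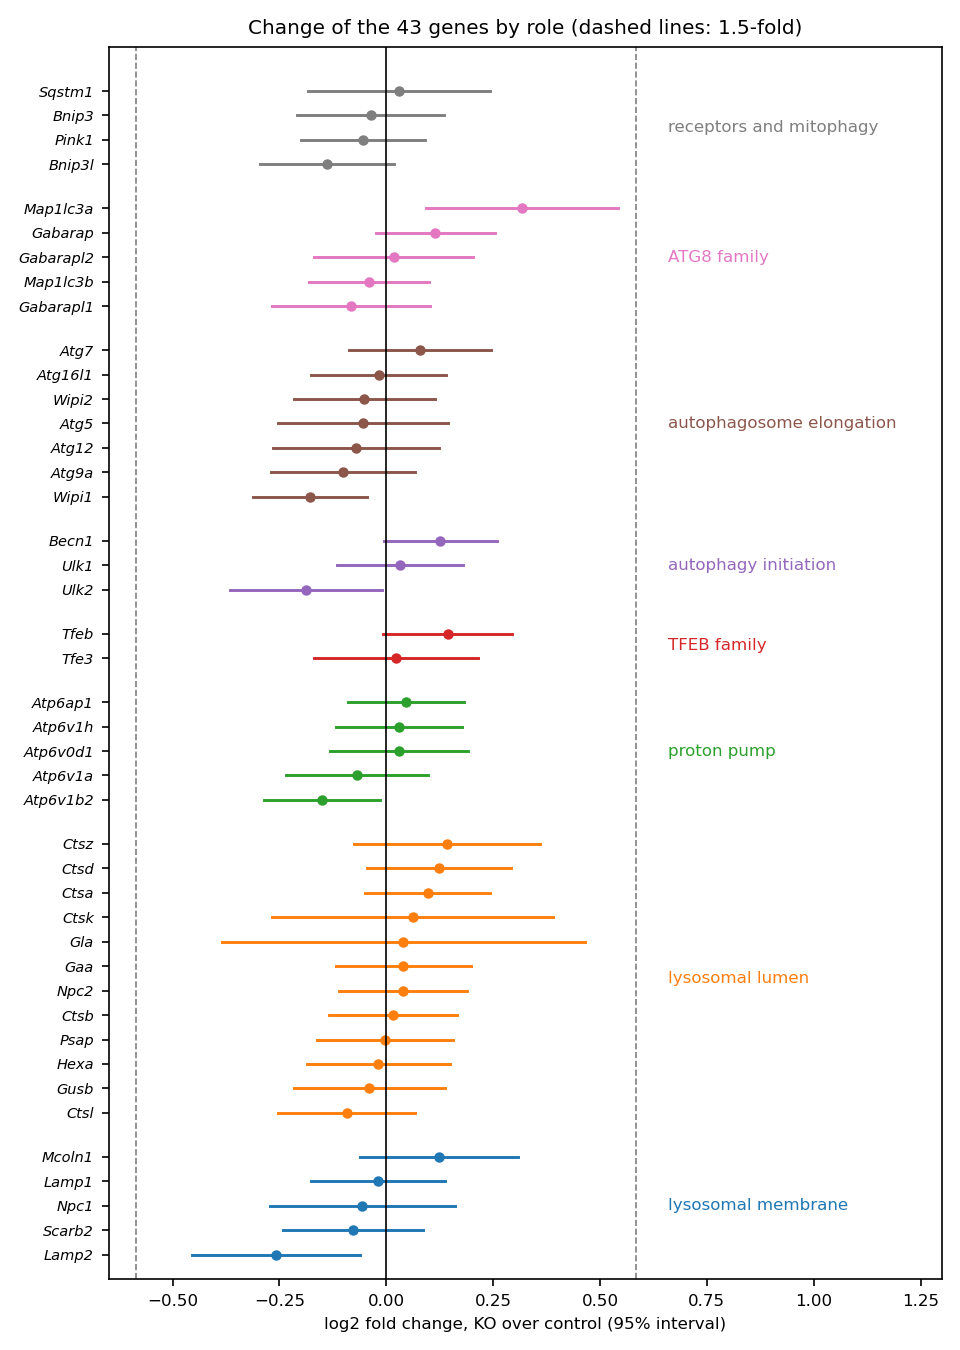
Log2 fold change of KO over control (horizontal axis) for each of the 43 genes, grouped by role, with lines for the 95% interval from the edgeR fit and dashed lines at a 1.5-fold change. All 43 intervals lie between the dashed lines, and 5 of them, those of Map1lc3a, Lamp2, Wipi1, Ulk2 and Atp6v1b2, do not reach 0.

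The libraries held 25328784 to 39615408 gene reads, and KO replicate 1 was the deepest. Each of the 43 genes had between 604 reads (Gla) and 363505 reads (Psap) over the 8 libraries. The targeted gene, Adgrf5, was at 233, 257, 222 and 218 CPM among controls, against 223, 231, 203 and 239.8 CPM among KO libraries. Endothelial cells transcribe it too and the counts cover the entire gene, so these values do not check the genotype labels on which each direction rests. The 8 endothelial markers summed to 928 to 1121 CPM in controls and 880 to 961 CPM in KO, with 7 below 0 on the log2 scale and a median log2 fold change of -0.20. Of these 8 markers 0 passed, 4 were lower at an unadjusted p under 0.05 (6.18% of all tested genes) and 3 had every KO library below every control (3.03% of all tested genes). The part of endothelial RNA in the values of the 43 genes was not tested. The 8 cardiomyocyte markers had the highest sum of the marker lists in every library, at 64890 to 76875 CPM in controls and 68452 to 81532 CPM in KO. KO replicate 1 was the highest library for 14 of the 43 genes and control replicate 2 for 11. Control replicate 4 was the lowest for 8, and KO replicates 1 and 4 were each the lowest for 7. Control replicate 4 also stood apart by its atrial markers, which summed to 6138 CPM against 385 to 1480 CPM in the other libraries. These sums include Nppa, which alone was at 864 CPM in KO replicate 1. The atrial marker Myl7 was at 40.7, 157, 0.371 and 983 CPM in control replicates 1 to 4. In KO replicates 1 to 4 it was at 0.264, 8.75, 183 and 8.12 CPM, so atrial transcripts were not confined to control replicate 4.

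Per kilobase of annotated exon, levels in controls spanned from Gla to Psap. Psap, the precursor of the saposins that help degrade sphingolipids, led with 572 ± 49.4 CPM per kb (SD, n = 4). It was followed by the ATG8-family gene Map1lc3a (416 ± 27.6), the mitochondrial kinase gene Pink1 (273 ± 23.3), the protease gene Ctsd (222 ± 13.6) and the membrane glycoprotein gene Lamp1 (188 ± 10.2), all in CPM per kb. Gla, the α-galactosidase lost in Fabry disease, was lowest at 0.794 ± 0.130 CPM per kb. In this order 29 of 42 neighbouring pairs had control ranges that overlapped, so most neighbours were not separated. The length used joins all annotated exons, which understates genes whose main transcript is short.

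The lysosomal membrane genes had 0 of 5 past the threshold, 1 with a log2 fold change above 0 and 4 below, with a median of -0.06. Lamp2 (ENSMUSG00000016534, chromosome X, 38401357 to 38456454, GRCm38), a glycoprotein needed for fusion of autophagosomes with lysosomes, was at 115, 132, 116 and 138 CPM in control replicates 1 to 4. It was at 90.2, 98.8, 120.2 and 112 CPM in KO replicates 1 to 4. KO replicates 1, 2 and 4 were below all controls, and KO replicate 3 was inside the control range. The log2 fold change of -0.26 had an SE of 0.0884 (unadjusted p = 0.0150, adjusted p = 0.344 by edgeR), with a 95% interval from -27.0% to -4.19%. Lamp1, the most abundant membrane glycoprotein of lysosomes, was at 496, 543, 492 and 481 CPM for controls and 499.7, 478, 527 and 479 CPM for KO. Its groups overlapped throughout, with a log2 fold change of -0.02 (SE 0.0708) and an interval from -11.6% to 9.99%. Mcoln1, a calcium-releasing lysosomal channel, had the highest value of this role at 0.12 (SE 0.0831), which was 0.07 without control replicate 2. The other members were Scarb2, which carries a lysosomal hydrolase to its destination, at -0.08, and the cholesterol exporter Npc1 at -0.06.

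Genes of the lysosomal lumen, mostly acid hydrolases, formed the role with the most members. Of 12 genes 0 passed, 8 were above 0 and 4 below on the log2 scale, with a median of 0.04 and a range from -0.09 to 0.14. The cysteine protease gene Ctsl marked the lower end at -0.09 (SE 0.0722) and Ctsz, a carboxypeptidase, the upper end at 0.14 (SE 0.0976), a value that was 0.07 without KO replicate 1 and 0.23 without KO replicate 4. Ctsz was at 41.4, 40.3, 40.8 and 37.7 CPM across controls and 53.1, 45.03, 44.5 and 34.95 CPM across KO, where replicate 4 was below every control. Gaa, the glycogen-degrading enzyme, was at 194, 212, 193 and 202 CPM among controls, against 231, 201, 197 and 196 CPM among KO libraries, with a 95% interval from -7.88% to 14.6%.

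Several cathepsins are also abundant in macrophages and fibroblasts, so their markers are given beside them. The 12 macrophage markers summed to 355 to 476 CPM in controls and 331 to 564 CPM in KO, highest in KO replicate 1, and 0 of 12 passed the test (7 above 0, 5 below). The 8 fibroblast markers summed to 1139 to 1255 CPM in controls and 1012 to 1320 CPM in KO, highest in KO replicate 3. Again 0 passed (1 above 0, 7 below, median log2 fold change -0.04). Ctsk, a collagen-degrading protease of fibroblasts and osteoclasts, was highest among KO libraries in the same replicate 3 (7.55 CPM against 5.66 to 5.86 CPM) and highest of all in control replicate 4 (8.13 CPM). The part of these cells in the cathepsin values was not tested.

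The proton pump had 0 of 5 listed genes past the threshold, with 3 above 0 and 2 below. Atp6v1b2 (chromosome 8, 69088646 to 69113711), the B subunit of the catalytic head, was at 88.1, 99.5, 86.9 and 86.4 CPM for controls and 85.4, 81.3, 79.3 and 78.8 CPM for KO. All 4 KO libraries were below all 4 controls, and the log2 fold change of -0.15 had an SE of 0.0612 (unadjusted p = 0.0328, adjusted p = 0.379 by edgeR). Over all tested genes 3.03% had every KO library below every control and 3.22% had every KO library above. Atp6ap1, an accessory subunit, had the highest value of the role at 0.05 (SE 0.0615). Among 14 further pump genes that were not on the list of 43, 12 were above 0 and 2 below with a median of 0.14, while 49.0% of all tested genes were above 0. None of these passed. Of all 19 pump genes, those spanning under 10 kb had 6 above 0 and 1 below, and the longer ones 9 above and 3 below. The share of all tested genes below 0 was 32.3% under 10 kb, 46.6% at 10 to 30 kb and 63.4% at 30 to 100 kb.

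Further pump genes with the smallest p differed in direction among themselves. Atp6v1d, a stalk subunit, was at 74.8, 79.99, 75.0 and 80.4 CPM across controls and 86.0, 84.3, 90.7 and 93.1 CPM across KO, so the groups did not overlap (log2 fold change 0.19, SE 0.0601, edgeR adjusted p = 0.320). Atp6v0c, the proton-carrying ring subunit, was at 47.1, 44.9, 43.9 and 27.4 CPM among controls, against 38.0, 29.98, 29.8 and 29.6 CPM among KO libraries. Control replicate 4 was the lowest library of all for this subunit. The gene's log2 fold change was -0.35, with an SE of 0.136 and an adjusted p of 0.367 by edgeR. Atp6v0e2 was at 0.35 (SE 0.158) and Atp6v0a1, a large membrane subunit, at 0.14 (SE 0.0655), both with overlapping groups.

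Neither of the TFEB-family genes passed, and both had a mean slightly higher in KO. Tfeb (chromosome 17, 47737030 to 47792419) was at 37.8, 40.1, 35.6 and 36.6 CPM for controls and 44.6, 39.4, 40.8 and 40.8 CPM for KO. Only the highest control, replicate 2, lay above the lowest KO library, and the log2 fold change of 0.14 had an SE of 0.0675 (unadjusted p = 0.0593, adjusted p = 0.428 by edgeR). Tfe3 was at 20.05, 22.8, 22.2 and 23.0 CPM across controls and 24.5, 23.7, 19.8 and 21.6 CPM across KO, with a log2 fold change of 0.02 (SE 0.0867). Both male KO animals were above all controls, and the female KO replicate 3 was the lowest of the 8 libraries. The 12 genes with CACGTG in their windows had log2 fold changes from -0.09 to 0.12 with a median of 0.03, of which 7 were above 0 and 5 below. Among these 12, the 6 with TCACGTGA had 5 above 0 and 1 below (median 0.07), and the 6 with CACGTG only had 2 above and 4 below (median -0.03). The 22 genes with a window but no match ran from -0.26 to 0.14 with a median of -0.01. The 9 genes without a window ran from -0.15 to 0.32 with a median of -0.02. Of all tested genes, 49.0% were above 0. The changes of other tested genes with these letters were not computed. Differences between these sets, and the part of genomic span in them, were not tested.

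Regulators upstream of TFEB, namely the mTORC1 kinase complex, its lysosomal Rag and Ragulator anchors and AMPK, were followed in a separate list of 33 genes. None of the 33 passed. At an unadjusted p under 0.05, 3 were higher and 5 lower in KO, beside 5.77% and 6.18% of all tested genes. In 3 genes every KO library was above every control and in 3 every one was below, beside 3.22% and 3.03% of all tested genes. Rragd, a Rag GTPase, was at 84.1, 94.4, 70.95 and 75.7 CPM among controls, against 69.1, 68.8, 66.0 and 63.05 CPM among KO libraries, so its groups did not overlap (log2 fold change -0.28, SE 0.0679, edgeR adjusted p = 0.212). Fnip2, a partner of folliculin that acts on Rag GTPases, was at 15.3, 16.4, 18.8 and 14.005 CPM for controls and 13.3, 11.3, 11.9 and 11.3 CPM for KO (log2 fold change -0.43, SE 0.107, edgeR adjusted p = 0.213). Lamtor4, a Ragulator subunit, was at 42.5, 32.1, 40.2 and 37.7 CPM across controls and 58.9, 47.9, 46.8 and 45.7 CPM across KO (log2 fold change 0.38, SE 0.107, edgeR adjusted p = 0.266). Rragd and Fnip2 overlap an annotated gene on the opposite strand, and so do Rubcn, Atg4d and Fkbp8 below. Tsc1, a brake on mTORC1, was also below all controls in the 4 KO libraries, at -0.21 (SE 0.0744).

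Of the 3 autophagy initiation genes 0 passed, 2 were above 0 and 1 below. Ulk2 (chromosome 11, 61775649 to 61855073), a kinase that starts autophagosome formation, was at 76.3, 91.2, 71.38 and 71.55 CPM among controls, against 64.1, 71.35, 68.96 and 67.4 CPM among KO libraries. The KO libraries were all below the controls, although KO replicate 2 and control replicate 3 were nearly equal. The log2 fold change of -0.19 had an SE of 0.0799 (unadjusted p = 0.0399, adjusted p = 0.398 by edgeR), and the value was -0.11 without control replicate 2. Ulk1, the related kinase, was at 0.03 (SE 0.0664). Becn1, which encodes Beclin 1 of the lipid kinase complex, was at 63.0, 60.4, 64.5 and 60.5 CPM for controls and 69.5, 69.8, 64.1 and 67.8 CPM for KO, with 1 KO library inside the control range and a log2 fold change of 0.13 (SE 0.0594).

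Genes that build and extend the autophagosome membrane numbered 7, and 0 passed, with 1 above 0 and 6 below and a median of -0.05. Wipi1 (chromosome 11, 109573331 to 109611967), a lipid-binding protein of the forming membrane, was at 128, 141, 119 and 117 CPM across controls and 122, 115, 104 and 105 CPM across KO. Within each sex the KO animals were below the controls, although the male KO replicate 1 was above the female controls. The log2 fold change of -0.18 had an SE of 0.0604 (unadjusted p = 0.0141, adjusted p = 0.344 by edgeR). Atg7, the enzyme that activates the conjugation of ATG8 proteins, stood at the upper end with 0.08 (SE 0.0751), at 19.1, 19.3, 19.9 and 17.2 CPM among controls, against 20.8, 20.8, 18.5 and 19.7 CPM among KO libraries. Of the other genes of this role, Atg9a was at -0.10, and Atg5, Atg12, Atg16l1 and Wipi2 ranged from -0.07 to -0.02.

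ATG8-family genes gave the single member with an unadjusted p under 0.05 on the higher side. Map1lc3a (ENSMUSG00000027602, chromosome 2, 155276297 to 155278073), which encodes LC3A, was at 521, 467, 459 and 518 CPM in control replicates 1 to 4. In KO replicates 1 to 4 it was at 749, 556, 564 and 584 CPM. All KO libraries were above all controls, as in 3.22% of all tested genes, and replicate 1 was farther above. The log2 fold change of 0.32 had an SE of 0.101 (unadjusted p = 0.0104, adjusted p = 0.320 by edgeR), with an interval from 6.58% to 45.6%, and it was 0.21 without KO replicate 1. With no low count filter edgeR called this gene (adjusted p = 0.0119) among 621 genes in all, whereas DESeq2 did not call it (adjusted p = 0.119).

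The other ATG8 genes did not share one direction, and 0 of the 5 passed (3 above 0, 2 below). Summed over the family, the level was 971 to 1044 CPM in controls and 1057 to 1304 CPM in KO, of which Map1lc3a made up the largest share. Gabarap was at 183, 188, 182 and 177 CPM for controls and 209.8, 189, 195 and 197 CPM for KO, without overlap (log2 fold change 0.11, SE 0.0627, edgeR adjusted p = 0.472). Map1lc3b, which encodes the LC3B protein used as the standard autophagosome marker, was at 178, 164, 166 and 158 CPM across controls and 171, 159, 157 and 159.5 CPM across KO, with overlapping groups and a log2 fold change of -0.04 (SE 0.0633). Gabarapl1 was lowest of the family at -0.08 (SE 0.0829), with -0.02 without control replicate 3, -0.15 without KO replicate 1 and -0.04 without KO replicate 4. Its KO libraries ran from 97.7 to 136 CPM and enclosed all 4 controls.

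**Figure D2:**
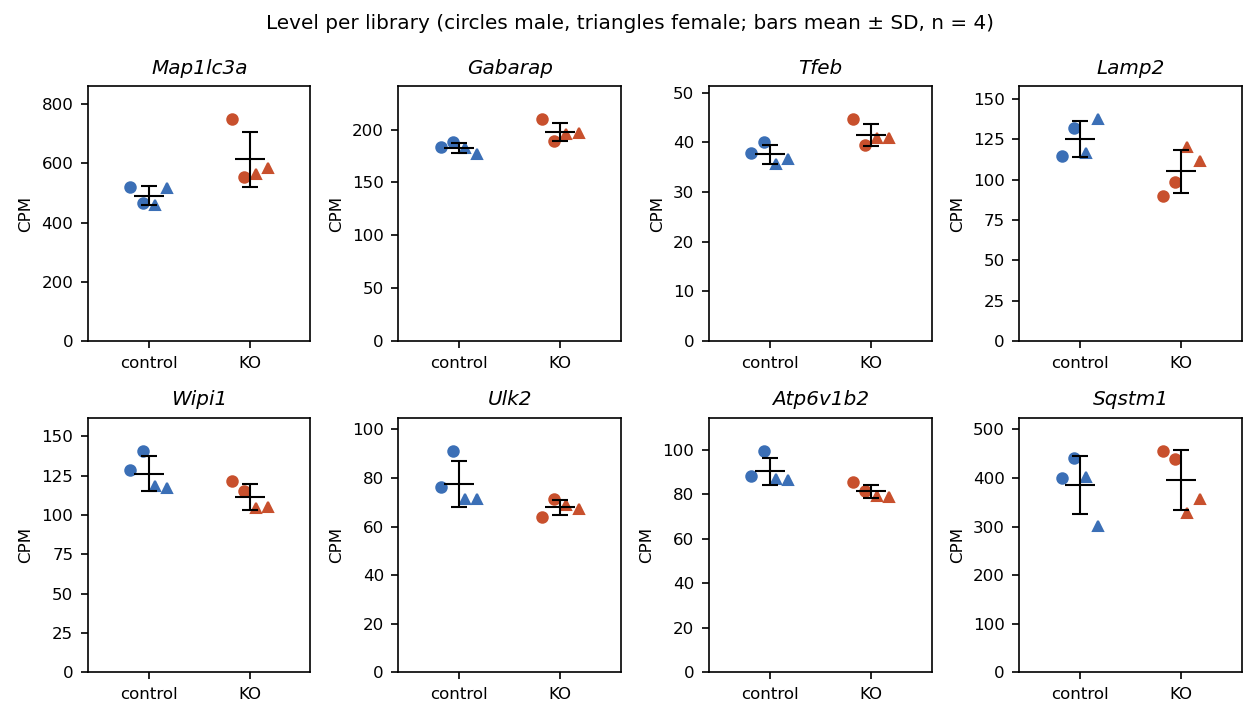
Level in CPM (vertical axes from 0) of 8 genes in each library, controls in blue and KO in red, circles for males and triangles for females, with bars for mean ± SD (n = 4 per group). Map1lc3a and Gabarap are higher in every KO library than in every control, Ulk2 and Atp6v1b2 are lower in every KO library, and the groups of Tfeb, Lamp2, Wipi1 and Sqstm1 overlap. Among all 43 genes, 2 had every KO library above every control and 2 had every one below (4.65% each). The shares over all tested genes were 3.22% and 3.03%.

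Cargo and mitophagy receptors had 0 of 4 past the threshold, 1 above 0 and 3 below. Sqstm1, which encodes the cargo receptor p62, was at 399, 441, 402 and 300.5 CPM among controls, against 456, 439, 329 and 357 CPM among KO libraries. Its spread within groups (SD 60.05 and 61.9 CPM) was larger than the difference between them, with a log2 fold change of 0.03 (SE 0.0958). Bnip3, a hypoxia-inducible mitophagy receptor, was at 93.8, 100.2, 109 and 113 CPM for controls and 84.5, 107, 108 and 105 CPM for KO, at -0.04 (SE 0.0777). Its relative Bnip3l was the lowest of the role at -0.14 (SE 0.0705, edgeR adjusted p = 0.448), with controls at 40.0, 37.3, 40.7 and 38.6 CPM and KO at 37.9, 36.3, 35.5 and 32.7 CPM. Pink1, the kinase that marks damaged mitochondria, was at -0.05 (SE 0.0655), with an interval from -12.9% to 6.54%.

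The rest of the pathway was followed in 5 lists, the pump genes and mTORC1 regulators above and 3 others, with 143 genes found under the symbols listed and all of them tested. None of the 143 passed. At an unadjusted p under 0.05 there were 9 higher and 8 lower, beside 5.77% and 6.18% of all tested genes. Among 46 further lysosomal genes 22 were above 0 and 24 below (median -0.01). Those with the smallest p were the protease Ctso at -0.32 (SE 0.0982) and the fucosidase Fuca1 at 0.20 (SE 0.0690). The KO libraries of Ctso were all below the controls, at 12.96 to 16.57 CPM against 16.60 to 20.3 CPM, and those of Fuca1 all above, at 26.6 to 29.3 CPM against 23.8 to 25.3 CPM.

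Among 34 further autophagy core and fusion genes 16 were above 0 and 18 below (median -0.01). Rubcn, an inhibitor of autophagosome maturation, was at 50.3 to 55.5 CPM in controls and 57.2 to 63.05 CPM in KO without overlap (log2 fold change 0.17, SE 0.0635, edgeR adjusted p = 0.350). Atg4d, a protease that processes ATG8 proteins, was at 0.15 (SE 0.0652), the initiation subunit Atg101 at 0.23 (SE 0.107) and the fusion tether Epg5 at -0.17 (SE 0.0802). Among 16 further receptors 6 were above 0 and 10 below (median -0.06). The mitophagy receptors Fundc1 and Fkbp8 were at -0.15 (SE 0.0720) and 0.13 (SE 0.0679), Calcoco1 at 0.14 (SE 0.0772) and Tollip at -0.12 (SE 0.0650).

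Within males, 0 of the 43 genes passed, while 0.0408% of all tested genes did. The smallest p belonged to Lamp2 (log2 fold change -0.39, SE 0.114), Ulk2 (-0.31, SE 0.101) and Map1lc3a (0.40, SE 0.142), with edgeR adjusted p of 0.188, 0.202 and 0.221. At an unadjusted p under 0.05 there were 2 higher and 2 lower, the fourth being Mcoln1 at 0.27 (SE 0.0986), beside 9.01% higher and 8.45% lower of all genes. Within females 0 of 43 and 0.00% of all genes passed, and at an unadjusted p under 0.05 there were 0 higher and 1 lower, beside 2.14% and 2.99% of all genes. The smallest p in females belonged to Bnip3l (-0.22, SE 0.0951), Wipi1 (-0.17, SE 0.0863) and Tfeb (0.18, SE 0.0962), all with adjusted p of 0.969 or above by edgeR.

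The difference between the sexes was tested by the interaction, and 0 of the 43 genes passed (0.00% of all genes), with 0 also at an unadjusted p under 0.05, where all genes gave 4.29% higher and 3.16% lower. DESeq2 called 0 of the 43 in either sex or in the interaction as well. Mcoln1 (male minus female 0.30, SE 0.140), Tfe3 (0.29, SE 0.150) and Ulk2 (-0.24, SE 0.143) had the smallest p of the interaction, with adjusted p of 0.648 to 0.684 by edgeR. In all, 23 of the 43 genes had the same sign in both sexes, beside 8334 of all 14695 tested genes. Each sex holds 2 animals per group.

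**Figure D3:**
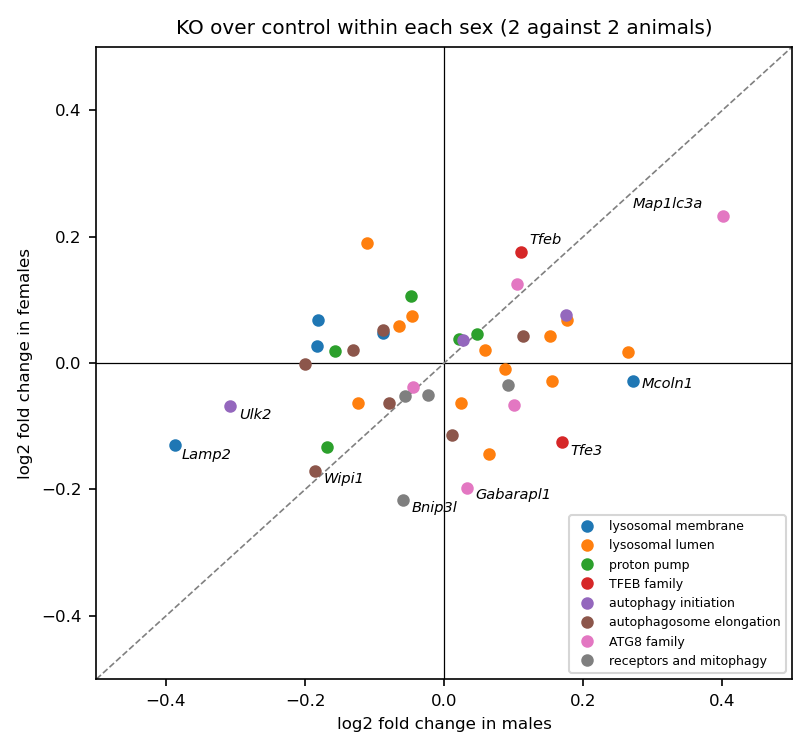
Log2 fold change of KO over control in males (horizontal axis) against females (vertical axis) for the 43 genes, coloured by role, with a dashed line where both are equal. Map1lc3a lies highest in both sexes (0.40 and 0.23), and Lamp2 and Ulk2 lie farther below 0 in males than in females. The same sign in both sexes was found for 23 of the 43 genes, beside 8334 of all 14695 tested genes.

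Genomic span moved with the direction of change across all genes. Tested genes spanning under 10 kb had a median log2 fold change of 0.09, those of 10 to 30 kb 0.01, those of 30 to 100 kb -0.05 and those over 100 kb -0.10. The autophagy and lysosome genes gave medians of 0.07 (6 genes), 0.02 (24 genes) and -0.06 (12 genes) in the first 3 of these bins, and Atg7, at 217.5 kb the single one in the longest bin, was at 0.08. Map1lc3a spans 1.8 kb, while Lamp2, Ulk2, Wipi1 and Atp6v1b2 span 55.1, 79.4, 38.6 and 25.1 kb. Of all 19 pump genes, the 7 under 10 kb had a median of 0.14 and the 12 longer ones 0.04. The part of span in these values was not tested.

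**Figure D4:**
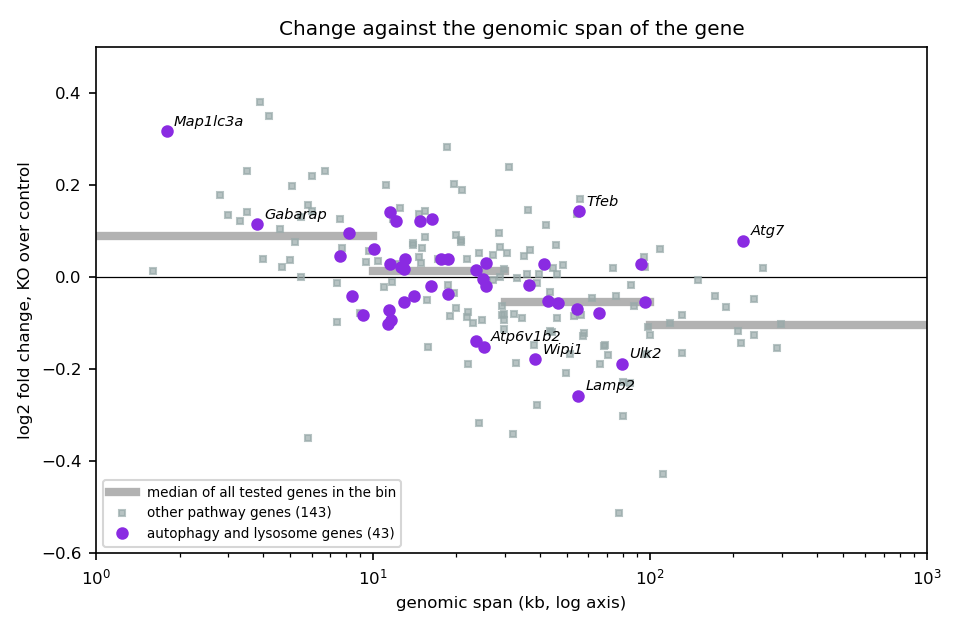
Log2 fold change of KO over control (vertical axis) against genomic span in kb (log axis) for the 43 genes (circles) and 143 further pathway genes (squares), with grey bars for the median of all tested genes in each of 4 span bins, the first and last of which are open-ended. The grey medians step from 0.09 to -0.10 with span. Of the labelled genes, Lamp2, Ulk2, Wipi1 and Atp6v1b2 lie below the bar of their bin. They are the genes lower at an unadjusted p under 0.05 by edgeR, so their place below the bars follows from that choice. Map1lc3a, Gabarap, Tfeb and Atg7 lie above the bar of their bin.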

How the data were processed

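Libraries were made with a stranded mRNA kit, per the labels' protocols. The authors deposited raw read counts per Ensembl gene, 1 file per library, and STAR, HTSeq and DESeq2 with build GRCm38 are named in the submitters' processing notes. The sources used here do not give versions, the annotation release or the strand setting. Summary entries that name no gene, of which multiply mapped reads were 16.8% to 20.3% of all tallied reads, were left out. Because the strand setting is unknown, reads of 16 of the 43 genes, among them Lamp1, Sqstm1, Map1lc3b, Bnip3, Becn1 and Atp6v1b2, may not be separated from an overlapping gene on the opposite strand. Symbols, positions and exon lengths came from GENCODE M21 (GRCm38), in which 55227 identifiers had a symbol.

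Genes were filtered with filterByExpr and scaled by TMM in edgeR 4.0.16 (R 4.3.3). KO was compared with control by a two-sided quasi-likelihood test with sex as an additive term, and the contrasts within sexes and their interaction came from a separate mean for each combination of sex and genotype. The Benjamini-Hochberg adjustment ran over all 14695 genes, with a threshold of 0.05. Intervals use the standard error and the t distribution of that fit. Alternatives were DESeq2 1.42.0, RLE size factors, removal of mitochondrially encoded genes, no or a stricter low count filter, no sex term, a replicate block and each library left out in turn.

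On simulated counts for KO against control (14695 genes, 200 changed in each of 3 simulations), 9.43% of 1.25-fold, 64.2% of 1.5-fold and 88.4% of 2-fold changes were recovered. The genes, the lists, their roles and the naming rule were chosen with earlier results of these data known. The rule gave full values for genes with an unadjusted p under 0.05 and for Tfeb, Tfe3, Sqstm1, Lamp1, Lamp2, Map1lc3b and Bnip3. It also named the highest and lowest gene of each role, up to 4 pathway genes per list and 3 genes per sex contrast. Some pathway genes that the rule names are not reported here. Scarb2, Npc1, Psap, Pink1, Gaa, Gla, Ctsd, Ctsk, Gabarap, Ulk1 and the remaining elongation genes were added to show levels or changes.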

Additional observations from a re-analysis of the deposited data

Results flagged for a closer look

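In each group of 4 libraries the highest or lowest value was set against the gap to the nearest of the others, for all 43 genes in both groups (86 tests). A gap whose share of the range was above Dixon's 95% critical value was found 11 times, and chance gives about 1 in 20. The 86 tests share the same 8 libraries and each group mixes the sexes. They are therefore not independent, and the 11 cannot be weighed against that rate. In KO replicate 1, Map1lc3a was at 749 CPM (others 556 to 584), Psap at 1720 CPM (others 1501 to 1529) and Gaa at 231 CPM (others 196 to 201). In KO replicate 3, Ctsk was at 7.55 CPM (others 5.66 to 5.86), and in KO replicate 4, Atg12 was at 24.5 CPM (others 19.96 to 20.3). Atg12 was also high in control replicate 3, at 25.1 CPM (others 20.95 to 21.5), and Atp6v1b2 in control replicate 2, at 99.5 CPM (others 86.4 to 88.1). Low values stood in control replicate 4, with Ctsd at 474 CPM (others 536 to 541), Atg16l1 at 38.2 CPM (others 42.7 to 43.6) and Gabarapl1 at 108 CPM (others 123 to 125). In KO replicate 1, Bnip3 was low at 84.5 CPM (others 105 to 108). Among these libraries, KO replicate 1 is the deepest and control replicate 4 the one with the highest atrial marker sum (6138 CPM). The part of depth or of atrial tissue in these values was not tested.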

How the results depend on the processing

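Among the autophagy and lysosome genes, 0 passed in either direction under DESeq2, RLE size factors, removal of mitochondrial genes, a stricter filter, no sex term, the replicate block and each library left out in turn. With no low count filter edgeR called 1 member higher (Map1lc3a) and 5 pathway genes, against 0 and 0; the cause was not tested. The pathway genes included Lamtor4 (adjusted p = 0.00277), Fnip2 (0.00935), Atp6v0c (0.0177) and Atp6v0e2 (0.0209). The counts within sexes and for their interaction were 0 under every alternative run for them. Over all tested genes the count of 15 became 140 with DESeq2, 621 with no low count filter, 6 with no sex term and 0 with the replicate block. Leaving out 1 library gave 0 to 50 genes: control replicates 1 and 2 and KO replicates 2 and 3 each left 0 genes when omitted, KO replicates 1 and 4 left 4, control replicate 4 left 20 and control replicate 3 left 50. The cause of these shifts was not tested.

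The replicate numbers were not treated as pairs in the main fit. Deviations from the group means correlated across genes at 0.246, 0.0937, -0.208 and 0.0873 for numbers 1 to 4, and 3 of 8 samples correlated best with their own number. Numbers 1 and 2 are males and 3 and 4 females in both groups, so these values also carry sex. Deviations from the means of each sex and group gave 0.0371 for males and -0.311 for females. With 2 animals each, they cannot tell the numbers apart, so pairing stays undecided. The median log2 fold change of the 43 genes ran from -0.03 to 0.01 when 1 library was left out. Over 15 alternatives, 15 of the 19 members chosen by the naming rule kept their direction. The other 4 turned it only when 1 library was left out, and ranged from -0.0457 to 0.0767 (Tfe3), -0.0388 to 0.131 (Sqstm1), -0.0614 to 0.0178 (Lamp1) and -0.112 to 0.0235 (Bnip3). Leaving out 1 library also moved other named genes by over 1.5 times without turning them, among them Atg7 (0.13 without control replicate 3, 0.04 without control replicate 4), Ctsl (-0.14 without KO replicate 3, -0.06 without KO replicate 4), Atp6ap1 (0.02 without KO replicate 3), Map1lc3b (-0.02 without control replicate 1, -0.07 without control replicate 2), Atp6v0c (-0.22 without control replicate 3), Atp6v0e2 (0.55 without control replicate 4), Atg101 (0.13) and Atg4d (0.10) without KO replicate 1, and Calcoco1 (0.09 without KO replicate 4). With 4 animals per group, small changes such as those measured here are mostly below what the test recovered on simulated counts.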
